A study of Mus musculus with 19 samples.

Results

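The 10 genes described here, Mcm2, Mcm3, Mcm4, Mcm5, Mcm6, Mcm7, Cdt1, Cdc6, Cdc45 and Gins2, encode the proteins that license replication origins and open the DNA helix. They were chosen by name, and all 10 of 10 were found among the 13202 genes of the bulk RNA-seq table and among the 19059 genes shared by the 4 single-cell matrices. Bulk RNA-seq covered Melan-a, an immortalised line of mouse melanocytes, as 5 lines: Bap1 knockout clones 1, 2, 3 and 4, each a single CRISPR clone, and the wild-type line. Each line was sequenced as 2 cultures, biological replicates by their titles, which makes 10 libraries in a single labelled batch and with no drug treatment. No edited and cloned line that kept Bap1 is among these groups, so the effect of losing Bap1 and that of cloning cannot be told apart. Whether the cultures of a line were kept separate throughout is not stated in the labels, so p-values measure the spread between these cultures, which may be technical. Single-cell RNA-seq covered tumours grown from Melan-a BAP1 knockout or wild-type cells in syngeneic mice, injected under the skin or into the eye. It came as 4 matrices under 1 sample, named by the submitters KO ocular, KO skin, WT skin and WT ocular. The clone behind the knockout tumours is not stated in the labels.

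In G1, the proteins Cdc6 and Cdt1 bring the ring of Mcm2 to Mcm7 to origins that the origin recognition complex has marked, and geminin blocks Cdt1 afterwards so that no origin fires again in the same cycle. At the start of S phase, Cdc45 and the GINS complex, of which Gins2 is a subunit, join the ring and turn it into the active helicase. Transcription of these genes is a known target of E2F factors, and they are widely used as markers of proliferating cells. Bap1 encodes a nuclear deubiquitinase of histone H2A and is a tumour suppressor in melanoma of the eye and skin.

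Across the 10 cultures the tested genes were divided into 2 courses, a number that was chosen and not found. Mcm2, Mcm6, Mcm7 and Cdt1 were higher in most knockout clones, and Mcm3, Mcm4, Mcm5, Cdc45 and Gins2 lay below the wild type in both cultures of clone 3, with other clones above it, below it or on either side. Mcm5 was above it in both cultures of the other clones. Promoters of 5 genes that show these courses are printed here, Mcm2, Mcm6 and Cdt1 for the first and Mcm3 and Mcm5 for the second. RefSeq's promoter table for GRCm38.p6 matched 8 of the 10 genes, all but Mcm4 and Gins2. Each sequence runs 5′ to 3′ on the gene's own strand and ends 1 base before the annotated gene. Capitals mark the E2F-type motif TTTNNCGC or its complement GCGNNAAA. In genome coordinates the windows are chr6:88898781-88899030 (minus strand) for Mcm2, chr1:128359706-128359955 (minus strand) for Mcm6, chr8:122567765-122568014 (plus strand) for Cdt1, chr1:20820313-20820562 (minus strand) for Mcm3 and chr8:75109259-75109467 (plus strand) for Mcm5.
Mcm2: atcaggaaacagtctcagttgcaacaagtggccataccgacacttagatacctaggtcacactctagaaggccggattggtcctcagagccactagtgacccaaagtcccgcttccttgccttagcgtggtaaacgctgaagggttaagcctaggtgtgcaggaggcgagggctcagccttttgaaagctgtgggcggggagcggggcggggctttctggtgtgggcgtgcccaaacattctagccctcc
Mcm6: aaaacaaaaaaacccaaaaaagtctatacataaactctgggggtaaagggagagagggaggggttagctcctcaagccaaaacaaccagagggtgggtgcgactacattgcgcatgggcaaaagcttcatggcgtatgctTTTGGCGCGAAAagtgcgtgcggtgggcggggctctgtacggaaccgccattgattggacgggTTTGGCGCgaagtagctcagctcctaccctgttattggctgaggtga
Cdt1: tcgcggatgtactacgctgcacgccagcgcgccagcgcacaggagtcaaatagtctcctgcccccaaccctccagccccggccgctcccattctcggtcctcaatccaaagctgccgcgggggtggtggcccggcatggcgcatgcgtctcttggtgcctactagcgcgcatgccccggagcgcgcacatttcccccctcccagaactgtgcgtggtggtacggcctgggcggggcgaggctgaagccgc
Mcm3: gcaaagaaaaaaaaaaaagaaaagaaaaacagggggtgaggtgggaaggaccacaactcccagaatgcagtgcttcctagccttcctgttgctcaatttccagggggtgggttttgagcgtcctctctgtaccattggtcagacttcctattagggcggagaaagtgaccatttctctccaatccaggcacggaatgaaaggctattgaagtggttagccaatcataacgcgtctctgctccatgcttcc
Mcm5: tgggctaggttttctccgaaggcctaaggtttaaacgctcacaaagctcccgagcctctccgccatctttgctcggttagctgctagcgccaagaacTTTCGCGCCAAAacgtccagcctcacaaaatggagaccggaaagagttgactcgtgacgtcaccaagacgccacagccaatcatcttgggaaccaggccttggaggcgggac
Searched on both strands over the 250 bases before the start, TTTNNCGC was found in 4 of the 8 promoters, against 4.28% of all 32851 promoters in the table. Mcm6 held 3 matches, at 110, 106 and 47 bases before the start. Mcm5 held 2 matches, at 153 and 149 bases before the start. The start used for Mcm5 lies 41 bases inside the annotated gene, beyond the end of the printed sequence. The Mcm5 pair overlaps and so does the first pair of Mcm6, with one copy of the motif on each strand. Mcm7 and Cdc6 each held 1 match, in windows that lie mostly or wholly inside the annotated gene. Mcm7 has 2 promoters in the table, of which the first was counted and the second held 0 matches. The share over all promoters counts each entry, so a gene can enter it more than once. The letters CCAAT were found in 6 of the 8 windows, against 33.8% of all promoters, and TTTGAA, the core of the cell-cycle homology region, in those of Mcm2 and Cdc45, against 16%. With the 50 bases after the start included, TTTNNCGC was found in 6 of the 8, against 5.17% of all promoters, the added genes being Mcm3 and Cdt1. These matches describe the letters and do not show binding.

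The recovered depth was 30.8 to 46.8 M reads per bulk library, and Bap1 checked the labels. Bap1 had 753 and 655 normalised reads in the cultures of clone 1, 1067 and 1124 in those of clone 2, 1193 and 1098 in those of clone 3 and 491 and 359 in those of clone 4, against 4450 and 4392 in the wild type. It fell in every clone, with adjusted p between 2.07e-07 and 6.69e-06 (limma). The 12 melanocytic markers (Pmel, Mlana, Tyr, Tyrp1, Dct, Mitf, Sox10, Slc45a2, Oca2, Trpm1, Gpr143 and Slc24a5) had at least 100 normalised reads in each library. Of these 12, 0 passed in clone 1, 2 fell in clone 2, 5 fell in clone 3, and 3 fell and 1 rose in clone 4 (limma), with Mlana and Trpm1 lower in the last 3 clones. Their part in the results was not tested. Normalised reads are read counts scaled for depth, recovered from the deposited variance-stabilised table. They are not scaled for gene length, so each gene is compared only with itself. In bulk RNA, fewer cycling cells and less RNA per cell cannot be told apart. Differences below are in stabilised, log2-like units, with p-values from limma adjusted over 10803 genes.

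Of the loading factors, Cdt1 was higher in all 8 knockout cultures. Cdt1, at chr8:122568015-122573130, had 361 and 458 normalised reads in the cultures of clone 1, 526 and 582 in those of clone 2, 705 and 718 in those of clone 3 and 499 and 825 in those of clone 4, against 305 and 301 in the wild type. The knockout cultures did not overlap the wild-type ones, and clone 1 lay nearest to them. The difference from wild type was 0.29 ± 0.17 in clone 1 (SE, n = 2 cultures a line; limma adjusted p = 0.429), 0.62 ± 0.17 in clone 2 (limma adjusted p = 0.0199), 0.91 ± 0.17 in clone 3 (limma adjusted p = 0.00189) and 0.79 ± 0.17 in clone 4 (limma adjusted p = 0.00432). The calls in clones 3 and 4 held whichever culture was left out. The call in clone 2 was lost without wild-type replicate 1 (limma adjusted p = 0.102), wild-type replicate 2 (0.107) or clone 2 replicate 2 (0.108). Cdt1 was also the only one of the 9 tested genes that the limma F test separated among the clones (adjusted p = 0.0454), although 44.5% of all genes passed that test, and the count went to 0 or up to 9 with other cultures left out. That call ended when each chromosome was centred on its own median, with 0 genes passing. Cdc6, which recruits Cdt1 and the ring, was near the detection limit and was not tested. Cdc6 had 15.5 and 10.1 normalised reads in the cultures of clone 1, 20.4 and 12.5 in those of clone 2, 2.09 and 1.16 in those of clone 3 and 10.3 and 41.6 in those of clone 4, against 10.5 and 2.64 in the wild type. The wild-type range overlapped those of clones 1 and 4 only.

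**Figure D1:**
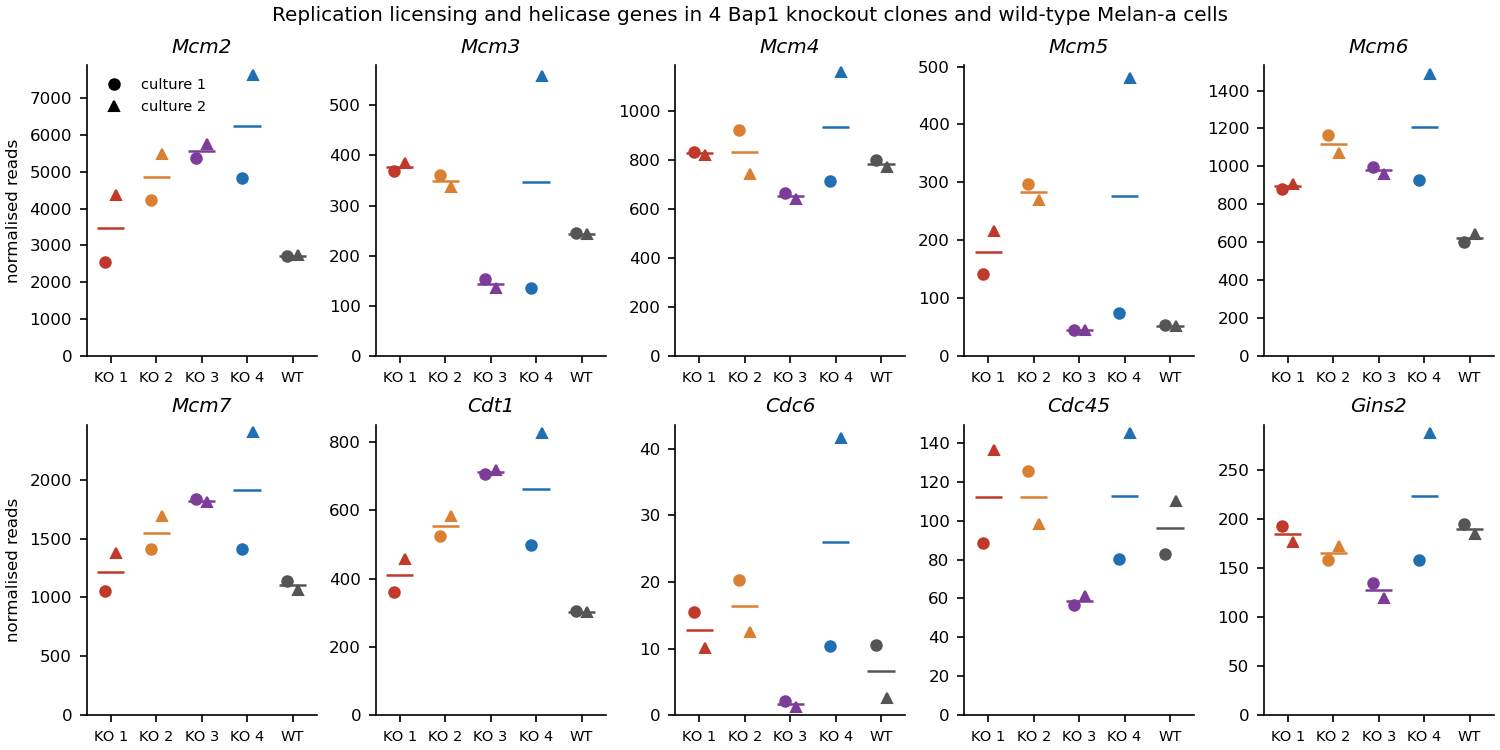
Normalised reads (linear axis from 0) of the 10 genes in each culture of knockout clones 1 to 4 and of the wild type. Circles are culture 1, triangles culture 2, and the bars their mean; Mcm6 and Cdt1 have all 8 knockout cultures above both wild-type ones, and culture 2 of clone 4 is the highest point in every panel.

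In the ring, Mcm6 rose in 3 clones. Mcm6, at chr1:128331575-128359705, had 882 and 908 normalised reads in the cultures of clone 1, 1163 and 1069 in those of clone 2, 999 and 959 in those of clone 3 and 927 and 1489 in those of clone 4, against 602 and 642 in the wild type. As with Cdt1, all 8 knockout cultures lay above both wild-type cultures, which was so for 2 of the 9 tested genes described here and for 10.9% of all genes. The difference was 0.43 ± 0.16 in clone 1 (SE; limma adjusted p = 0.206), 0.69 ± 0.16 in clone 2 (limma adjusted p = 0.0103), 0.53 ± 0.16 in clone 3 (limma adjusted p = 0.0231) and 0.76 ± 0.16 in clone 4 (limma adjusted p = 0.00449). The call in clone 4 held whichever culture was left out. Those in clones 2 and 3 did not, with limma adjusted p up to 0.0811 for clone 2, without wild-type replicate 1, and up to 0.121 for clone 3, also without wild-type replicate 1. Without wild-type replicate 2 they were 0.0549 and 0.0835, without clone 2 replicate 1 the clone 2 value was 0.0508, and without clone 3 replicate 1 or 2 the clone 3 value was 0.113 or 0.0903. Clone 1 passed only in refits without a culture of clone 4. These take the spread between the clone 4 cultures out of the error, so they are not counted as calls.

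Mcm2, a subunit of the ring that also binds histones, rose in the same 3 clones. Mcm2, at chr6:88883474-88898780, had 2556 and 4371 normalised reads in the cultures of clone 1, 4226 and 5484 in those of clone 2, 5366 and 5742 in those of clone 3 and 4836 and 7634 in those of clone 4, against 2702 and 2742 in the wild type. Clones 2, 3 and 4 lay above the wild type, and the cultures of clone 1 lay on either side of it. The difference was 0.28 ± 0.25 in clone 1 (SE; limma adjusted p = 0.645), 0.78 ± 0.25 in clone 2 (limma adjusted p = 0.039), 0.98 ± 0.25 in clone 3 (limma adjusted p = 0.00993) and 1.11 ± 0.25 in clone 4 (limma adjusted p = 0.00588). Leaving out 1 culture took the highest limma adjusted p to 0.218 in clone 2 (without its replicate 2), 0.0676 in clone 3 (without its replicate 2) and 0.0514 in clone 4 (without its replicate 2). The clone 2 call was also lost without wild-type replicate 1 (0.155) or 2 (0.146) or clone 3 replicate 1 or 2 (0.0659 each), and the clone 3 call without wild-type replicate 1 (0.0532) or 2 (0.05).

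Mcm7 rose in clones 3 and 4. Mcm7, at chr5:138164583-138172111, had 1058 and 1377 normalised reads in the cultures of clone 1, 1408 and 1696 in those of clone 2, 1835 and 1811 in those of clone 3 and 1416 and 2403 in those of clone 4, against 1141 and 1066 in the wild type. The cultures of clones 2, 3 and 4 lay above the wild type. The difference was 0.11 ± 0.20 in clone 1 (SE; limma adjusted p = 0.847), 0.43 ± 0.20 in clone 2 (limma adjusted p = 0.141), 0.64 ± 0.20 in clone 3 (limma adjusted p = 0.0262) and 0.66 ± 0.20 in clone 4 (limma adjusted p = 0.0251). Chromosome 5 as a whole stood higher in these clones: its median gene was 0.40 log2 units above the rest in clone 3 and 0.27 above in clone 4. After each chromosome was centred on its own median, Mcm7 no longer passed, at 0.29 in clone 3 and 0.39 in clone 4 (limma adjusted p = 0.283 and 0.154), which left 3 genes called in each of those clones. Both calls were lost without wild-type replicate 1 (limma adjusted p = 0.0852 in clone 3, 0.085 in clone 4) or 2 (0.125 in both). The clone 3 call was lost without its replicate 1 or 2, and the clone 4 call without its replicate 2. Clone 2 passed only in refits without a culture of clone 4, which take the spread between those cultures out of the error.

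Mcm5, whose junction with Mcm2 is the gate of the ring, showed the widest spread. Mcm5, at chr8:75109468-75128439, had 141 and 216 normalised reads in the cultures of clone 1, 297 and 269 in those of clone 2, 43.9 and 45.1 in those of clone 3 and 73.4 and 480 in those of clone 4, against 53.4 and 51.1 in the wild type. Clone 3 lay just below the wild type and the other clones above it. The difference was 0.78 ± 0.36 in clone 1 (SE; limma adjusted p = 0.304), 1.19 ± 0.36 in clone 2 (limma adjusted p = 0.0332), -0.08 ± 0.36 in clone 3 (limma adjusted p = 0.884) and 0.95 ± 0.36 in clone 4 (limma adjusted p = 0.06). For clone 4 the value was 1.73 without its replicate 1 and 0.18 without its replicate 2. Each of these fits leaves 1 culture of clone 4, so the spread between its cultures is not in the error and no p-value is given. With all cultures, edgeR on the recovered reads called Mcm5 in clone 4, at 2.38 log2 units of reads (edgeR adjusted p = 0.0189). The clone 2 call was lost without either replicate of the wild type, of clone 2 or of clone 3. Clone 1 passed only in refits without a culture of clone 4, which are not counted as calls for the same reason.

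Mcm3 followed the course of Mcm5 (r = 0.878 over the 10 libraries) more closely than that of Mcm2 (r = 0.0468). Mcm3, at chr1:20802966-20820312, had 369 and 384 normalised reads in the cultures of clone 1, 361 and 336 in those of clone 2, 153 and 135 in those of clone 3 and 135 and 559 in those of clone 4, against 245 and 243 in the wild type. Clones 1 and 2 lay above the wild type, clone 3 below it, and the cultures of clone 4 on either side. No difference passed in limma over all cultures. In clone 4 it was 0.18 ± 0.30 (SE, limma adjusted p = 0.679), but 0.83 without its replicate 1 and -0.48 without its replicate 2, so the direction rests on 1 culture. Clones 1 and 2 passed as higher, and clone 3 as lower, only when a culture of clone 4 was left out. Such refits take the spread between the clone 4 cultures, a ratio of 4.13, out of the error, so they are not counted as calls. Mcm4, at chr16:15623897-15637400, had 834 and 823 normalised reads in the cultures of clone 1, 923 and 743 in those of clone 2, 665 and 644 in those of clone 3 and 714 and 1163 in those of clone 4, against 802 and 771 in the wild type. Its cultures in clone 1 lay above the wild type and in clone 3 below it, and no difference passed with all cultures. With a culture left out, the clone 4 value ran from -0.114 to 0.475.

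Of the factors that activate the ring, neither Cdc45 nor Gins2 passed in any clone. Cdc45, at chr16:18780447-18811972, had 88.4 and 136 normalised reads in the cultures of clone 1, 126 and 98.1 in those of clone 2, 56.5 and 61.3 in those of clone 3 and 80.3 and 145 in those of clone 4, against 82.9 and 110 in the wild type. Clone 3 was the only line clear of the wild type, below it. Gins2, at chr8:120581266-120589075, had 193 and 177 normalised reads in the cultures of clone 1, 158 and 172 in those of clone 2, 135 and 119 in those of clone 3 and 158 and 288 in those of clone 4, against 194 and 184 in the wild type. Its cultures in clones 2 and 3 lay below the wild type, with a difference of -0.31 ± 0.15 in clone 3 (SE; limma adjusted p = 0.125). The clone 3 difference passed only in refits without a culture of clone 4, and clone 4 itself only without its replicate 1. These refits take the spread between the clone 4 cultures out of the error, so they are not counted as calls.

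**Figure D2:**
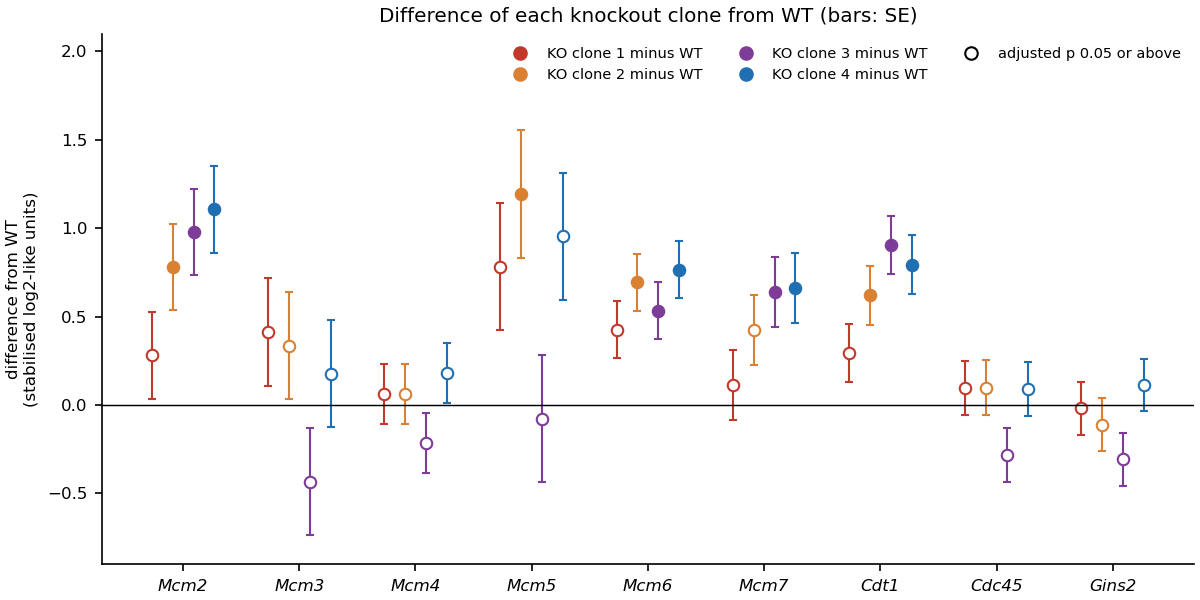
Difference of each knockout clone from wild type, in stabilised log2-like units (points, with SE bars), for the 9 tested genes. Filled points have a limma adjusted p under 0.05: Mcm2, Mcm6 and Cdt1 in clones 2, 3 and 4, Mcm7 in clones 3 and 4, and Mcm5 in clone 2.

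Counted by clone, 0 of the 9 tested genes passed in clone 1, where 1.15% of all genes passed as higher. Mcm6 alone passed there at an unadjusted p under 0.05, and edgeR also called 0. Of the 9 genes, 4 passed as higher in clone 2 (12% of all genes), 4 in clone 3 (19.9%) and 4 in clone 4 (19.3%), and 0 passed as lower in any clone, against 2.35%, 14.1%, 20% and 17.2% of all genes in clones 1 to 4. The median difference of the 9 genes was 0.28, 0.43, -0.08 and 0.66 in clones 1 to 4, beside -0.02, 0.03, 0.01 and 0.04 over all genes. Of these 12 calls, 3 held whichever of the 10 cultures was left out. With the clone as the unit, so that the spread among the 4 clones is the error, 0 genes passed in limma or edgeR among the 9 and 0% among all genes. Bap1 itself did not pass in this fit, at -2.24 ± 0.44 (SE; limma adjusted p = 0.735), and the wild type is 1 line, so a count of 0 says little here. The mean difference over the clones was 0.60 ± 0.20 for Mcm6, 0.65 ± 0.26 for Cdt1 and 0.79 ± 0.31 for Mcm2 (SE), each with a limma adjusted p of 0.735. These 3 of the 9 passed at an unadjusted p under 0.05, as did 2.27% of all genes upward.

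Except in Mcm2, the cultures of clone 4 differed from each other more than those of any other line did in these genes. In clone 4, all 9 tested genes were at least 1.5-fold higher in culture 2 than in culture 1, which was so for 7.58% of all genes. The ratio ran from 1.58 for Mcm2 to 6.54 for Mcm5, with 4.13 for Mcm3, and Cdc6 stood at 4.03. In clone 1, 3 of the 9 were at least 1.5-fold higher in culture 2, namely Mcm2 at 1.71, Mcm5 at 1.53 and Cdc45 at 1.54, against 4.46% of all genes. In clone 2, clone 3 and the wild type 0 of the 9 were 1.5-fold higher in culture 2, with 2.43%, 0.87% and 0.333% of all genes past it. The mitosis list moved beside this: 13 of its 22 tested genes were at least 1.5-fold higher in culture 2 of clone 4, with a median ratio of 1.63. Its part in the result was not tested.

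**Figure D3:**
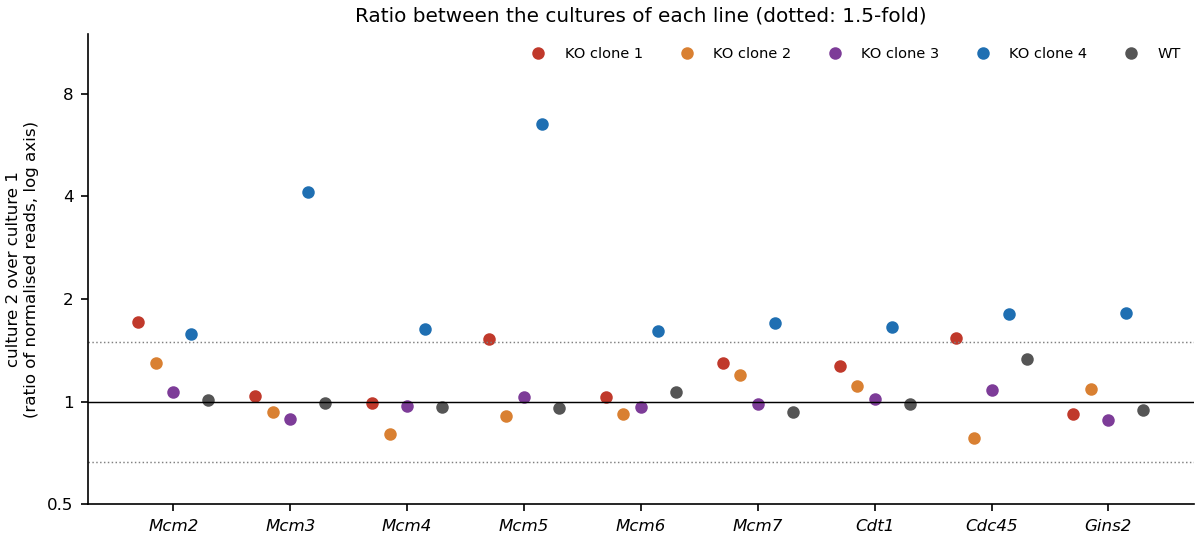
Ratio of normalised reads in culture 2 over culture 1 (log axis) for the 9 tested genes in knockout clones 1 to 4 and the wild type; dotted lines mark 1.5-fold. Clone 4 lies above 1.5-fold for all 9 genes, up to 6.54 for Mcm5, and clones 2 and 3 and the wild type stay within the lines.

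Over the 10 libraries, average linkage on the correlations, cut at a chosen number of 2 sets, gave the 2 courses named above. Within the set of Mcm2, Mcm6, Mcm7 and Cdt1, Pearson's r ran from 0.814 to 0.966 over 6 pairs. Within the set of Mcm3, Mcm4, Mcm5, Cdc45 and Gins2 it ran from 0.624 to 0.88 over 10 pairs. Between the sets it ran from -0.0767 for Cdt1 and Cdc45 to 0.746 for Mcm5 and Mcm6. The value for Mcm5 and Mcm6 lies above the 0.624 for Mcm5 and Gins2 within a set, so the sets are not sharply apart. The 10 points are 5 lines with 2 cultures each and share depth and line effects, so these values are a description. So the 6 genes of a single hexamer were divided between the sets, with Mcm2, Mcm6 and Mcm7 in one and Mcm3, Mcm4 and Mcm5 in the other. Outside the lists, the genes whose course was most like the mean standardised level of the 9 were Mms22l (r = 0.983), Lmnb1 (0.952), Fam83h (0.939), Plxnd1 (0.929), Tonsl (0.927) and Rbm4b (0.924), over the same 10 libraries. That mean pools the 2 sets. It was 1.78 in culture 2 of clone 4 and between -0.693 and 0.407 in the other cultures, so these values lean on 1 culture. Mms22l had 103 and 126 normalised reads in the cultures of clone 1, 126 and 122 in those of clone 2, 103 and 97.1 in those of clone 3 and 88.4 and 228 in those of clone 4, against 92.4 and 81.0 in the wild type.

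Other genes of the pathway were counted in the same way. Over all genes, 1.15%, 12%, 19.9% and 19.3% rose in clones 1 to 4, and 2.35%, 14.1%, 20% and 17.2% fell. A count near these shares shows nothing particular to its list. Of 14 tested licensing genes outside the 10, 0 passed in clone 1, 5 rose in clone 2, 5 rose and 1 fell in clone 3, and 3 rose in clone 4. Among them Orc2, a subunit of the origin recognition complex, rose by 0.38 in clone 2, 0.60 in clone 3 and 0.43 in clone 4 (limma adjusted p = 0.0157, 0.000827 and 0.00596). Ddb1, an adaptor of the ubiquitin ligase that destroys Cdt1, rose by 0.63, 0.66 and 0.62 in the same clones (limma adjusted p = 0.00765, 0.00374 and 0.00588). Of 16 tested helicase activation genes, 7 rose in clone 2, 3 rose and 1 fell in clone 3, and 2 rose in clone 4. Cdc7, the kinase that phosphorylates the ring, had 239 and 294 normalised reads in the cultures of clone 1, 370 and 331 in those of clone 2, 440 and 414 in those of clone 3 and 254 and 347 in those of clone 4, against 106 and 172 in the wild type. The knockout cultures of Cdc7 did not overlap the wild type, and it passed in clones 2, 3 and 4 (limma adjusted p = 0.00282, 0.000448 and 0.00588). Dbf4, its activating partner, passed in the same 3 clones, at 0.42, 0.82 and 0.47 (limma adjusted p = 0.0217, 0.000415 and 0.00945). Like Mcm7, both Cdc7 and Dbf4 lie on chromosome 5. Its median gene stood 0.403 log2 units above the rest in clone 3 and 0.265 above in clone 4. The part of that shift in these rises was not tested.

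Further from the helicase, 1, 1 and 6 of 27 fork genes rose in clones 2, 3 and 4, and 1 fell in each of clones 3 and 4. Beside them, 12%, 19.9% and 19.3% of all genes rose in clones 2, 3 and 4, and 14.1%, 20% and 17.2% fell. The same shares stand beside the lists that follow. Rfc3, a clamp loader subunit, rose in clones 3 and 4, and Fen1, the flap nuclease, in clones 2 and 4. Of 10 nucleotide supply genes, 3 rose and 1 fell in clone 3 and 4 rose in clone 4, with Cad and Slbp higher in both. Rfc3, Cad and Slbp also lie on chromosome 5, which as a whole stood higher in clones 3 and 4. The part of that shift was not tested. In the list of E2F and pocket protein genes, of which 20 were tested, clone 2 had 3 rises and 2 falls, clone 3 had 7 rises and 5 falls, and clone 4 had 9 rises and 3 falls. Ccnd1, a cyclin that starts the release of E2F, rose by 0.78, 1.11 and 1.56 in clones 2, 3 and 4 (limma adjusted p = 0.0347, 0.00459 and 0.000732), and Ccnd3 rose in clones 3 and 4. Cdkn2c, an inhibitor of the kinases that these cyclins activate, fell by 0.75, 0.91 and 0.41 in clones 2, 3 and 4 (limma adjusted p = 0.000836, 0.000156 and 0.015). Tfdp2, a partner of E2F factors, fell by 0.85, 1.26 and 0.93 (limma adjusted p = 0.00197, 0.000108 and 0.000724). Its relative Tfdp1 rose in the same clones, by 0.49, 0.70 and 0.37 (limma adjusted p = 0.00624, 0.000531 and 0.0172). E2f1 also rose in them, by 0.87, 0.83 and 1.11 (limma adjusted p = 0.00752, 0.00628 and 0.00144). Tfdp1 and E2f1 were named after their values were seen. Mitosis genes took another course from Mcm2, Mcm6 and Cdt1: 19 of 22 rose in clone 2, 2 fell in clone 3, and only Cenpe rose in clone 4. Of the RNA quality list 2 of 9 genes were in the table, and 1 fell, in clone 2.

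In the tumours, 13167 barcodes were read in the matrix labelled KO skin, 11810 in that labelled WT skin, 11283 in that labelled KO ocular and 38176 in that labelled WT ocular. The last came from another assay, listing 32285 genes with 16-base barcodes where the others list 19059 with 24-base barcodes, so it enters no ratio. No full barcode was shared between matrices, while 1793 to 2417 barcodes agreed in their first 16 bases between any pair of the 24-base matrices. Cells called melanocytic-like, by 12 pigment-cell markers and without using the 10 genes for clustering, numbered 5047 in KO ocular, 10261 in KO skin and 6143 in WT skin, with medians of 9198, 4393 and 5861 UMIs per cell. In WT ocular no cluster could be named so, and its closest, cluster 0, is given by number. Levels are CPM, the UMI counts of a gene scaled to 1000000 UMIs of a class over the shared genes. Bap1 had 33.2 CPM in KO ocular and 47.2 in KO skin, against 41.6 in WT skin, so it was lower than WT skin in KO ocular and higher in KO skin. By cluster of melanocytic-like cells it ran from 23.2 to 59.6 CPM in KO ocular and from 39.0 to 68.9 in KO skin, against 35.7 to 45.7 in WT skin. Neither probe nor edit positions are known from the labels or headers, so Bap1 cannot check these names. Each name has 1 matrix, so no test was possible, and intervals cover counting error only.

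In the tumours most of the genes stood lower in the matrix labelled KO skin than in that labelled WT skin, Mcm2, Mcm6, Mcm7 and Cdt1 included, which were higher in the cultured clones. Summed over the 10 genes, the melanocytic-like cells had 339 CPM in KO skin (exact Poisson interval 335 to 343), against 562 in WT skin (556 to 568), a ratio of 0.603. Mcm2 had 91.4 CPM in KO skin and 172 in WT skin, a ratio of 0.532 (exact interval 0.516 to 0.548). Mcm5 had 13.5 in KO skin and 31.2 in WT skin, the lowest ratio of the 10, at 0.432. The ratio was 0.466 for Mcm3, 0.53 for Mcm4, 0.597 for Mcm6, 0.565 for Cdc45 and 0.607 for Cdc6. Mcm7 and Cdt1 stood at 0.774 and 0.773, and Gins2 at 1.02 (exact interval 0.943 to 1.10). So 7 of 10 were at least 1.5-fold lower and 0 higher, where 20.5% of all genes were lower and 30.1% were higher. The median ratio was 0.581 for the 10 genes and 1.11 over all genes.

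In KO skin, the CPM intervals of 5 of the 10 genes did not clear those of neutrophil-like cells, taken here as the background of free RNA. After thinning each cell to 1000 UMIs, 21.2% of melanocytic-like cells in KO skin held a UMI of any of the 10 genes (exact binomial interval 20.4 to 22.0, 59.4% before thinning), against 31.2% in WT skin (30 to 32.4, 71.9% before thinning). Neutrophil-like cells, which have left the cycle, held one in 15.9% of cells in KO skin and 17.4% in WT skin, with medians of 1253 and 911 UMIs. These shares come from 233 thinned neutrophil-like cells in KO skin and 489 in WT skin, so their intervals are wide. Taken singly, 0 of the 10 genes had a share in KO skin whose interval cleared that of the neutrophil-like cells, and 4 had in WT skin, namely Mcm2, Mcm5, Mcm6 and Mcm7. In KO skin, Mcm5 was held by 1.17% of melanocytic-like and 0% of neutrophil-like cells, whose interval reached 1.57%. A share that did not clear is therefore not shown to be background. By CPM in whole cells, the interval lay wholly above that of the neutrophil-like cells for 5 of the 10 in KO skin, namely Mcm2, Mcm4, Mcm5, Mcm7 and Gins2, and for 9 in WT skin, all but Cdc6. The share of all genes that clear the neutrophil-like cells was not computed. The counts of genes that clear are therefore a description and not a trait of these genes. Mcm5 had 13.5 CPM in melanocytic-like and 3.53 in neutrophil-like cells of KO skin, and the sum of the 10 genes 339 and 192. Cdt1 had 34.5 CPM in melanocytic-like and 30.6 in neutrophil-like cells of KO skin, so its level there is not distinguished from background. The sum of the melanocytic markers in neutrophil-like cells, which should lack them, was 29900 CPM in KO skin and 19900 in WT skin. RNA quality genes also differed: 7 of 7 read were lower in KO skin than in WT skin, with a median ratio of 0.133. Their part in the result was not tested.

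All 10 genes were higher in KO ocular than in KO skin. The sum was 796 CPM in KO ocular (exact interval 789 to 802), against 339 in KO skin, a ratio of 2.35. Mcm2 had 254 CPM in KO ocular and 91.4 in KO skin, a ratio of 2.78. The ratio was highest for Mcm5, at 3.23, followed by Cdc6 at 3.10 and Mcm6 at 3.00, and lowest for Cdt1 at 1.82, Mcm7 at 1.59 and Gins2 at 1.52. All 10 were past 1.5-fold upward, where 14.4% of all genes were, and the median ratio over all genes was 0.859. In KO ocular, 39.2% of thinned melanocytic-like cells held a UMI of any of the 10 genes, against 9.39% of neutrophil-like cells, and the intervals of all 10 genes cleared those of the neutrophil-like cells. The thinned neutrophil-like cells numbered 1565 in KO ocular and 233 in KO skin, so clearing them was easier in KO ocular. How many of all genes clear them was not computed. Mitosis genes moved the same way, with 23 of 25 at least 1.5-fold higher, and so did the RNA quality genes, with 7 of 7 higher and a median ratio of 5.45. The part of either was not tested, and site, animal and library cannot be told apart.

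**Figure D4:**
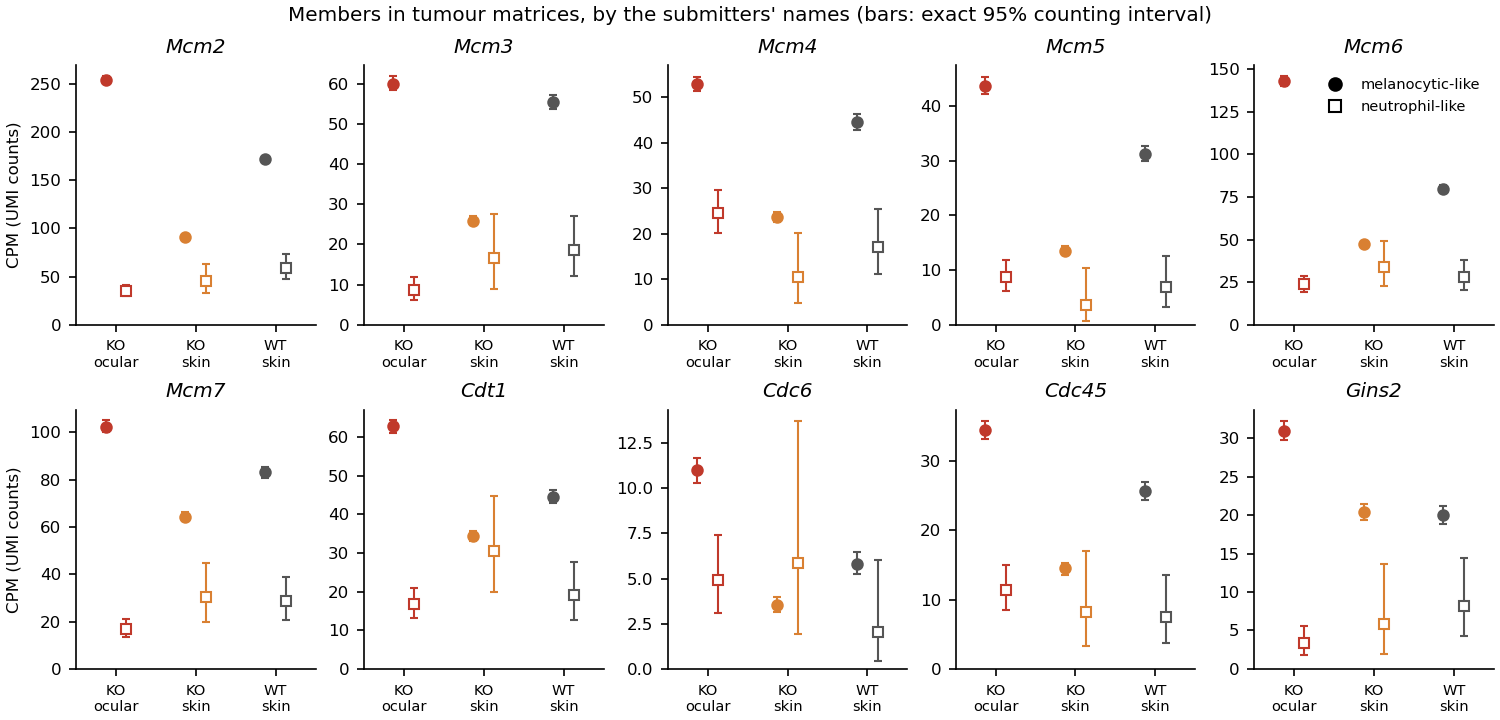
CPM (linear axis from 0) of the 10 genes in melanocytic-like cells (filled circles) and neutrophil-like cells (open squares) of the matrices labelled KO ocular, KO skin and WT skin, with exact 95% counting intervals. KO ocular is highest for every gene, and in KO skin the intervals of Mcm3, Mcm6, Cdt1, Cdc6 and Cdc45 meet those of the neutrophil-like cells.

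The share of cells with Mki67 or Top2a differed between the matrices in the same order, but most of the mitosis list did not between the skin matrices. Of 25 mitosis genes read, 3 were at least 1.5-fold lower in KO skin than in WT skin and 2 higher. Their median ratio was 0.844, and 20.5% of all genes were lower and 30.1% higher. A UMI of Mki67 or Top2a, markers of cycling cells, was held by 17.6% of thinned melanocytic-like cells in KO ocular, 6.74% in KO skin and 11.1% in WT skin. The neutrophil-like cells held one in 2.3% of cells in KO ocular, 5.58% in KO skin and 6.75% in WT skin, and in KO skin the intervals overlapped, so that share is not distinguished from background. In the cells without such a UMI, unthinned, the sum of the 10 genes was 382 CPM in KO ocular, 224 in KO skin and 342 in WT skin. Among these cells 5 of 10 genes were still at least 1.5-fold lower in KO skin than in WT skin (19.9% of all genes). Against KO skin, 7 of 10 were still at least 1.5-fold higher in KO ocular (12.4% of all genes). Absence of a UMI does not show that a cell was out of cycle.

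Within each matrix, cells with Mki67 or Top2a carried more of these transcripts. At 1000 UMIs per cell the sum of the 10 genes was 1.99 times as high in cells with such a UMI as in cells without in KO ocular (exact interval 1.85 to 2.14), 2.66 times in KO skin (2.40 to 2.94) and 2.44 times in WT skin (2.24 to 2.67). Over all UMIs it was 2.67, 2.46 and 2.24 times, so the order of the matrices depends on the thinning. Mcm5 had 57.3 CPM in cells with and 8.73 in cells without in KO skin, a ratio of 6.57, and the ratio was 2.58 in KO ocular and 2.89 in WT skin. Over all UMIs the ratio of Mcm5 was 4.29 in KO ocular, 5.36 in KO skin and 3.09 in WT skin. Mcm3 reached 4.35 and Cdc45 3.8 in KO skin. Cdt1 stood lower, at 1.66 in KO ocular, 1.66 in KO skin and 1.44 in WT skin, where the interval reached 0.98. Gins2 showed no detectable excess at this depth in KO ocular, at 1.05 (exact interval 0.653 to 1.63), or in KO skin, at 1.47 (0.816 to 2.46), and stood at 2.28 in WT skin (1.35 to 3.71). Over all UMIs the ratio of Gins2 was 1.95 in KO ocular, outside its thinned interval, 1.91 in KO skin and 1.68 in WT skin.

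**Figure D5:**
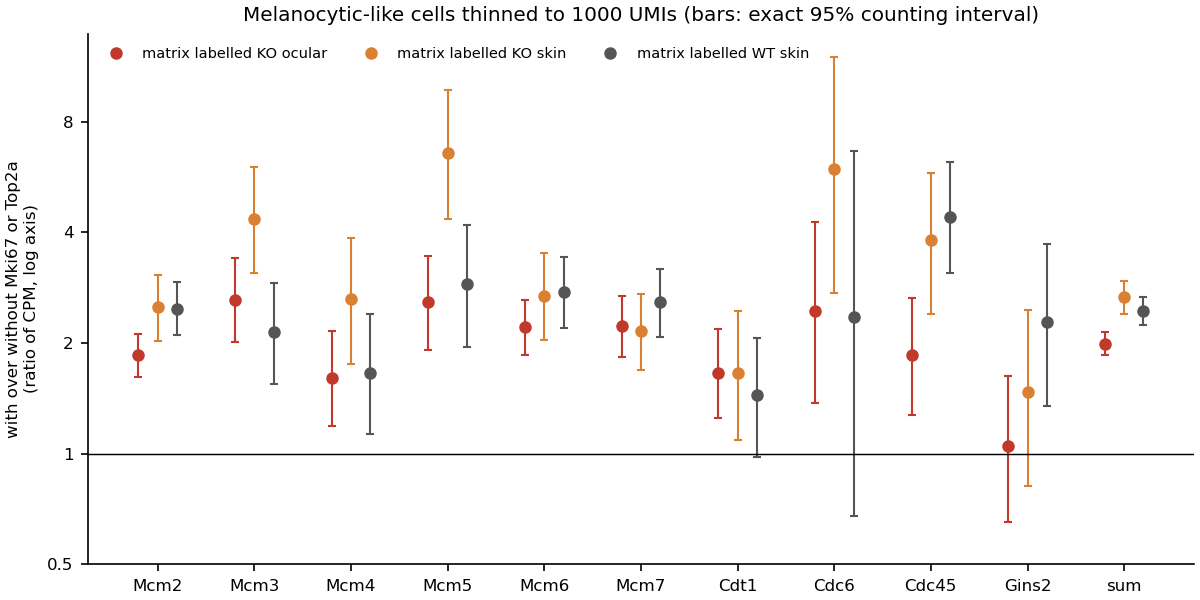
Ratio (log axis) of CPM in melanocytic-like cells with over those without a UMI of Mki67 or Top2a, each cell thinned to 1000 UMIs, for the 10 genes and their sum in the matrices labelled KO ocular, KO skin and WT skin; bars are exact 95% counting intervals. Mcm5 in KO skin is the highest point, at 6.57, and Gins2 in KO ocular the lowest, at 1.05.

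Within each matrix, the sum of the 10 genes varied among the clusters of melanocytic-like cells. In KO ocular, cluster 16 had a sum of 1690 CPM and cluster 18 of 1100, against 312 to 781 in the others. In KO skin, cluster 11 had 981 against 198 to 515 in the others, and in WT skin cluster 16 had 1600 against 308 to 611. Among the named cell classes of at least 50 cells, melanocytic-like cells ranked 1 of 10 by this sum in KO ocular, 3 of 8 in KO skin and 2 of 8 in WT skin. T or NK-like cells were highest in KO skin, at 825 CPM in 120 cells, and endothelial-like cells in WT skin, at 622 in 130 cells. In KO skin the 331 of fibroblast-like cells and the 317 of macrophage-like cells lay near the 339 of melanocytic-like cells, and the interval of the first overlapped it (305 to 359). The neutrophil-like cells were lowest in both skin matrices, at 192 in KO skin and 196 in WT skin, and erythroid-like cells in KO ocular, at 97.1.

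In the matrix labelled WT ocular, cluster 0 held 4836 cells with a median of 2597 UMIs and a sum of 304 CPM, against 240 in its neutrophil-like cells. After thinning, 25.0% of its cells held a UMI of any of the 10 genes, against 20.7% of the neutrophil-like cells. Of the 10, Mcm5, Mcm7 and Gins2 had shares whose intervals cleared the neutrophil-like ones, and the share of all genes that do was not computed. Cells of cluster 0 with Mki67 or Top2a had 1.5 times the sum of those without (exact interval 1.27 to 1.77), although the share with such a UMI, 8.37%, did not clear the 6.44% of the neutrophil-like cells. Its melanocytic markers summed to 16900 CPM, near the 13000 of its neutrophil-like cells, so the origin of these cells was not established.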

How the data were processed

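The bulk table was deposited by the authors in variance-stabilised units, close to log2 of counts at high counts. Per the labels' protocols a stranded kit was used on polyadenylated RNA. The submitters' processing notes list GRCm38 and mm10, and no bulk aligner, counter or stabilising package is named in labels or headers. Stabilised values were inverted to normalised reads, which gave whole read counts for 100% of values within 0.01. Fold changes on the stabilised scale understate changes of weakly expressed genes. Genes with a mean at least 1 unit above the lowest value were tested (10803). limma 3.58.1 (R 4.3.3) with a mean-variance trend compared each clone with the wild type in 1 fit over 5 groups, compared the clones by an F test, and compared line means with the clone as the unit. Thresholds were Benjamini-Hochberg adjusted p under 0.05. edgeR 4.0.16 on the recovered reads was an alternative. On simulated data, 72 to 84 of 100 changes of 2-fold and 94 to 97 of 100 of 4-fold were recovered per clone.

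Single-cell UMI counts were deposited as raw matrices, written by Cell Ranger 8.0.0 (7.0.0 for WT ocular), per the file headers. A fixed-tissue workflow is described in the protocols and a 3' chemistry in the library description. Cells with at least 500 UMIs, 200 genes and at most 20% mitochondrial UMIs were clustered with scanpy 1.11.5 (Leiden, resolution 1), without the 10 genes and the lists. Doublets were scored and kept, and leaving out the top 5% was an alternative. A cluster took a class name when its markers were at least 1.5-fold higher in median than in other classes, with at least 3 detected. Its 10 leading genes could hold no more markers of another class than of its own. Clusters of low depth with no marker of the class among those genes stayed unnamed. A class name was dropped altogether when the cluster highest in its markers did not carry it. Clusters led by platelet genes stayed unnamed, a choice made after the clusters were seen. Genes with at least 50 UMIs over both matrices entered ratios. Intervals and shares are exact, at 95%, and cover counting error only.

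The members and lists were chosen with earlier results of these data known. Genes of the other lists were named when they passed in at least 2 clones with 1 sign in all 4, at most 2 rises and 2 falls per list. The replicate numbers did not meet the rule for pairing. The whole-genome and whole-exome samples were not analysed here.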

Additional observations from a re-analysis of the deposited data

Results flagged for a closer look

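Cdt1 passed the limma F test among the clones (adjusted p = 0.0454), with all 8 knockout cultures higher than the wild type and clone 1 nearest to it. That call was lost with chromosome centring, when 0 genes passed. In 4 other genes clones lay on either side of the wild type by position, and no tested difference among the clones passed. The share of all genes with such positions is not given, and 44.5% of all genes passed the F test. These positions are therefore a description and not a trait of these genes. In Mcm3, both cultures of clones 1 and 2 lay above the wild type and both of clone 3 below it (limma F test, adjusted p = 0.115). In Mcm5, both cultures of clones 1, 2 and 4 lay above and both of clone 3 below (limma F test, adjusted p = 0.0554). In Mcm4, clone 1 lay above and clone 3 below (limma F test, adjusted p = 0.242). In Cdc6, clone 2 lay above and clone 3 below, at 2.09 normalised reads in its culture 1, and the difference was not tested.

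Culture and tumour differed in direction for Mcm6 and Cdt1. Both were higher than the wild type in all 8 cultures of the knockout clones, and both were lower in melanocytic-like cells of the matrix labelled KO skin than in WT skin, at ratios of 0.597 for Mcm6 and 0.773 for Cdt1. The difference between the settings was not tested, with 1 matrix per name, and in KO skin neither gene's share of cells cleared that of neutrophil-like cells. Only 233 neutrophil-like cells were thinned there, so their intervals are wide.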

How the results depend on the processing

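Counts of genes called per clone stayed within 1.5 times under 6 alternatives that left out no culture (edgeR with TMM or DESeq2 size factors, quantile normalisation, no filter, chromosome centring, replicate block). Left-out cultures gave 0 to 3 calls in clone 1, 0 to 6 in clone 2, 1 to 6 in clone 3 and 3 to 8 in clone 4, directions pooled. The F test called 1 gene, and 2 with edgeR and DESeq2 size factors or without a filter, 0 with chromosome centring, 4 with the replicate block, and 0 to 9 with a culture left out. The cause was not tested. Each fit with a culture left out keeps 1 culture of that line, which then adds no spread to the error. The replicate numbers gave correlations of -0.0256 to 0.727 between clones, over 0.1 in 5 of 6 pairs, and of -0.128 to -0.0739 between a clone and the wild type. Pairing was to be accepted only with every pair over 0.1, so it was not accepted. The clone cultures of a replicate number may still share more than the number. With the block as a term, 0, 4, 4 and 5 genes were called in clones 1 to 4. With the clone as the unit, 0 genes passed under every alternative run. Quantile normalisation turned Gins2 in clone 1 to 0.047 and in clone 2 to 0.082, and Mcm5 in clone 3 to 0.12, none called. Left-out cultures turned the sign in 9 gene and clone pairs, Gins2 in clone 1 again among them. In clone 1, Mcm2 ran from -0.084 to 0.65, Mcm7 from -0.052 to 0.28, Cdc45 from -0.052 to 0.24 and Gins2 from -0.055 to 0.016. In clone 2, Mcm4 ran from -0.067 to 0.19. In clone 4, Mcm3 ran from -0.48 to 0.83, Mcm4 from -0.11 to 0.47, Cdc45 from -0.11 to 0.29 and Gins2 from -0.14 to 0.37. In the single-cell data the number of genes past 1.5-fold ran from 5 to 7 (KO skin over WT skin) and 7 to 10 (KO ocular over KO skin), in one direction each. The summed level in KO ocular was 796 CPM, and 769 with at least 1000 UMIs per cell, 713 with a marker gate, 789 without the top doublet scores, 382 without cells holding Mki67 or Top2a, and 789 with the clusters led by platelet genes, an alternative chosen after seeing the data. In KO skin it was 339, and 364 at resolution 0.5, 348 with at least 1000 UMIs and 224 without Mki67 or Top2a. In WT skin it was 562, and 643, 555 and 342 under those settings, 541 with a marker gate and 554 without the top doublet scores. Cdc6 in culture and the smaller cell classes are limited by depth.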
